A study of Homo sapiens with 12 samples.

Results

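The HOX genes are the 39 human homeobox genes that lie in 4 clusters, HOXA with 11 genes, HOXB with 10, HOXC with 9 and HOXD with 9. They were chosen by symbol, HOX followed by a cluster letter and a number, from 33514 gene symbols. That rule used no measured value, but these genes and the further gene lists were chosen with earlier results of these data known. Their levels were read in single-cell RNA-seq of 3 head and neck squamous cell carcinoma (HNSCC) cell lines, SCC1, SCC6 and SCC25, libraries being made with the 10X Chromium 3' v2 chemistry. Each line received cetuximab, a therapeutic antibody against EGFR, at 100 nM every day for 5 days, or PBS alone, which is the untreated control. Every one of the 6 combinations of line and treatment was deposited as 2 libraries, replicate 1 and replicate 2, which gives 12 libraries. The labels name no genetic change beyond the line itself, each line is a single established line, and no normal squamous cells were analysed here. Nothing in the sources used here says whether the 2 replicates were separate cultures, so the p-values measure the spread between these libraries, which may be technical.

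HOX genes encode transcription factors that give cells a position along the body axis. In each cluster the genes stand in a row, and the low-numbered, anterior genes switch on earlier and nearer the head than the high-numbered, posterior genes, an order called collinearity. Polycomb proteins keep clusters silent and trithorax proteins keep them active, and adult epithelia retain much of the code they were given in the embryo. The jaw and the front of the tongue come from tissue that develops without HOX expression, while the hindbrain and the pharyngeal arches behind it carry the anterior members.

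The libraries held 961 to 2854 cells, 23914 in all, and 57057402 to 112170073 UMIs (unique molecular identifiers, 1 for each captured mRNA molecule), with median depths per cell between 24078.5 and 54864 UMIs. The shallowest cells were those of SCC6 cetuximab replicate 1, at 24078.5 UMIs against 50156 in replicate 2. Libraries shared between 1 and 13 cell barcodes in any of the 66 pairs. A check of the labelled cell type gave mixed values: the summed level of 10 squamous epithelial markers ran from 6751 to 14010 CPM (a gene's UMIs scaled to the same total in every library) in SCC1 and SCC25, and from 991.6 to 3151 CPM in SCC6. The basal keratins KRT5 and KRT14 stayed at or under 4.57 and 2.58 CPM in the 4 SCC6 libraries, while KRT17 was present there at 440 to 2449 CPM. Of 5 endothelial markers the sum was at most 0.738 CPM and of 7 fibroblast markers 0.947 to 80.3 CPM. Of 6 leukocyte markers the sum was 3.41 to 192.9 CPM and of 5 melanocyte markers 0.352 to 2.87 CPM. PTPRC, which defines leukocytes, reached at most 0.0669 CPM. The squamous sum was also higher with cetuximab than with PBS in every line except for an overlap in SCC25, and the part of these markers in the HOX values was not tested.

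The clusters occupy 4 chromosomes of GRCh38.p14, an annotation release of the build the labels name: HOXA on chromosome 7, HOXB at chr17:48528526-48728750, HOXC at chr12:53938831-54056030 and HOXD at chr2:176087487-176190907. Most HOXD genes were near or at 0 in SCC6 and not in the other lines, so 3 HOXD promoters are shown, for 2 genes that were near or at 0 in SCC6 (HOXD11, HOXD10) and for the nearest neighbour that was not (HOXD8). HOXD8 starts at base 176129705, and 4767 bases separate it from the end of HOXD9. Each line gives the 250 bases before the annotated start, 5' to 3' on the plus strand, taken from RefSeq (HOXD11 chr2:176107030-176107279, HOXD10 chr2:176116528-176116777, HOXD8 chr2:176129455-176129704), and the capitals mark CG dinucleotides, the bases at which DNA is methylated.
HOXD11: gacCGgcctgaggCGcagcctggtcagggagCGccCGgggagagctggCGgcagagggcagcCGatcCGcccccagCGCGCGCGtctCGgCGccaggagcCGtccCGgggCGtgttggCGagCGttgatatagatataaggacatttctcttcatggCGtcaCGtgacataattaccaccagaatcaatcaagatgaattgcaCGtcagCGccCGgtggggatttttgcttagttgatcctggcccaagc
HOXD10: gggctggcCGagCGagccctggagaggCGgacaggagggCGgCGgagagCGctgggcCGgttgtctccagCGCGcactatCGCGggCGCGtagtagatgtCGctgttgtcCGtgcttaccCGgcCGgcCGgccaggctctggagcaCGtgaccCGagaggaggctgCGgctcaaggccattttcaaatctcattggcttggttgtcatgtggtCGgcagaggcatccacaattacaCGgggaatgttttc
HOXD8: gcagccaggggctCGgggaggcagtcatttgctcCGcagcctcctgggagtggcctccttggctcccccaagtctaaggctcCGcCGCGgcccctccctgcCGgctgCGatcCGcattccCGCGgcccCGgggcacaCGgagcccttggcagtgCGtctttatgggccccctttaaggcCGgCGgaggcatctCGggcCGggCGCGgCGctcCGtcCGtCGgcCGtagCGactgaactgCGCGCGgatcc
HOXD11 and HOXD10 each carried 23 CG dinucleotides and HOXD8 28, against a median of 11 over 35116 promoters of the same length. Of all those promoters 32.45% held 20 or more, and of the 27 HOX entries, which cover 20 of the symbols, 48.15% did. These entries include several alternative starts of HOXA3, and those of HOXC4 and HOXC5 are the same 250 bases. Most HOXB and HOXC genes have no entry, so shares of the 27 describe these entries and not HOX promoters as a group. The motif TATAAA, searched on both strands, was found in none of the 3, in 10.72% of all promoters and in 18.52% of the HOX entries. A match or its absence describes these letters alone, and neither chromatin nor DNA methylation was measured in these libraries.

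The first question was which HOX genes each untreated line carried, since this code differs between cells of different origin. The untreated libraries of SCC1 had 27 and 26 HOX genes above 1 CPM, those of SCC25 33 and 30 and those of SCC6 16 each. In each untreated SCC6 library 12 HOX genes had no UMI at all, against 4 and 2 in untreated SCC1 and 1 in each SCC25 library. Those SCC6 libraries held 100360353 and 102796996 UMIs. Almost the whole HOXD cluster and the front of HOXB were missing from SCC6, whereas the HOXA genes were present in all lines. SCC25 held the most HOXC RNA and stood apart by HOXA9, HOXA13 and HOXC10.

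**Figure D1:**
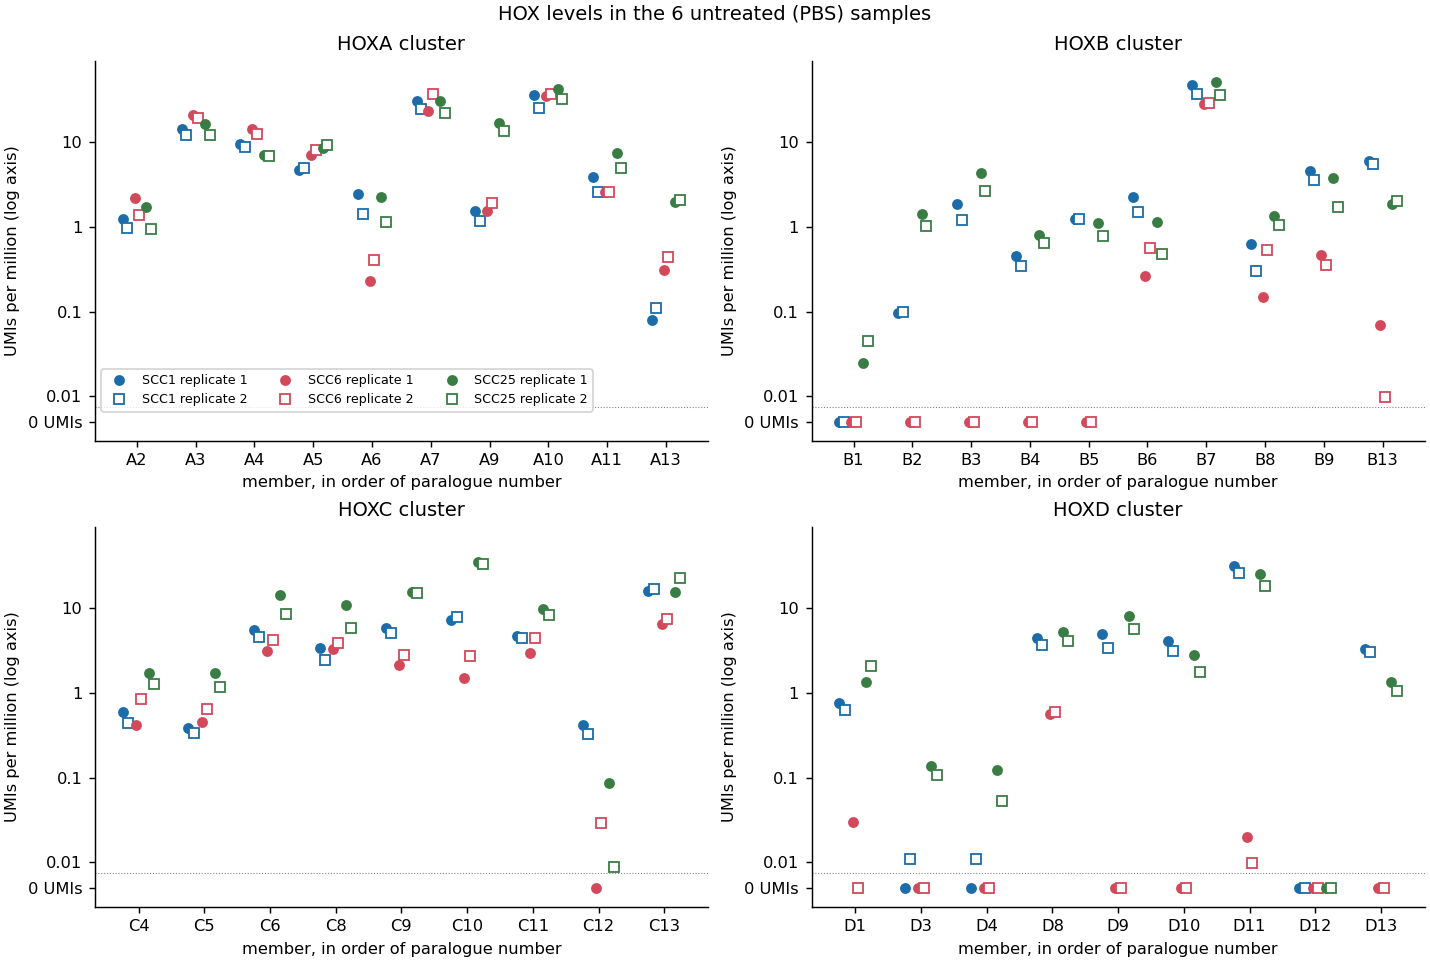
Level of 38 HOX genes in the 6 PBS libraries, in CPM on a log axis with a separate row for libraries without a UMI, ordered along each cluster. Circles are replicate 1 and open squares replicate 2 of SCC1, SCC6 and SCC25, and the SCC6 points lie in the row for 0 UMIs for HOXB2 to HOXB5, HOXD3, HOXD4, HOXD9, HOXD10 and HOXD13.

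Counts were summed over the cells of a library and compared by quasi-likelihood in edgeR over 17897 genes. P-values were adjusted by Benjamini-Hochberg with a threshold of 0.05. The filter on low counts was passed by 37 of the 39 HOX genes, all but HOXB1 and HOXD12. Since a gene can pass that filter through the line in which it is high, counts over these 37 describe them and are no support. Log2 fold changes are given ± standard error (SE) and were scaled by the trimmed mean of M-values (TMM), whereas CPM values were divided by library totals alone. This matters between lines: with library totals in place of TMM the log2 differences shifted, at the median over all genes, by -0.33 in SCC6 minus SCC1, by -0.19 in SCC25 minus SCC1 and by 0.14 in SCC25 minus SCC6. The 3 comparisons between lines use the same 6 PBS libraries and are not independent of each other.

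Between untreated SCC6 and SCC1, 23 of the 37 HOX genes were called, against 40.2% of all genes. In SCC6, 17 were lower, as 18.6% of all genes were, and 6 were higher, as 21.5% were. With library totals the split became 18 lower and 1 higher. The median log2 difference was -0.91 over the 37 HOX genes, or -0.82 over 35 once genes without UMIs in a line were set at their bounds, and 0.00 over all genes. Between SCC25 and SCC1, 19 were called, against 40.8% of all genes. In SCC25, 16 were higher against 23.4% and 3 lower against 17.3%, with medians of 0.92 over the HOX genes and 0.04 over all. Between SCC25 and SCC6, 27 were called, against 40.9% of all genes. In SCC25, 26 were higher and 1 lower, against 22.2% and 18.7%, with medians of 2.25 and 0.00. The share of HOX genes called higher in SCC6 than in SCC1 was thus below the background, and the share called lower was above it. Of the calls, 16 of 23, 9 of 19 and 22 of 27 were kept whichever single library was left out. With the replicate number as a block 28, 26 and 32 HOX genes were called, where 57.5%, 58.8% and 58.1% of all genes were.

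In the HOXD cluster every tested gene was called higher in SCC25 than in SCC6, 8 of 8, against 22.2% of all genes. In SCC1, 6 of 8 were called higher than in SCC6, against 18.6% of all genes. The summed HOXD level was 44.4 ± 6.19 CPM (SD, n = 2) in untreated SCC1, 0.606 ± 0.00332 in SCC6 and 38.7 ± 8.14 in SCC25. HOXD8 alone carried most of what SCC6 retained.

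The posterior HOXD genes pattern the limbs and the genital tract. HOXD13, altered in inherited synpolydactyly, was measured at 3.33 and 3.06 CPM in SCC1 PBS, 3.72 and 3.32 in SCC1 cetuximab, 0 in all 4 SCC6 libraries, 1.36 and 1.06 in SCC25 PBS and 1.14 and 0.908 in SCC25 cetuximab. It had no UMI in any SCC6 library, and as 3 UMIs over the group would correspond to 0.0148 CPM, untreated SCC1 was at least 214-fold and SCC25 at least 80.3-fold above SCC6. Between the lines that express it, HOXD13 was lower in SCC25 than in SCC1 (-1.21 ± 0.28, adjusted p = 0.00999), a call lost without SCC1 PBS replicate 2 (0.0542) or SCC25 PBS replicate 2 (0.0613). HOXD12, the next gene, had no UMI in any of the 12 libraries, which allows at most 0.0148 to 0.0221 CPM in a group.

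HOXD11, needed for the forearm and the kidney, gave 31.1 and 26.1 CPM in SCC1 PBS, 33.5 and 28.6 in SCC1 cetuximab, 0.0199 and 0.00973 in SCC6 PBS, 0.0132 and 0 in SCC6 cetuximab, 25.4 and 18.1 in SCC25 PBS and 27.0 and 20.3 in SCC25 cetuximab. All 8 libraries of SCC1 and SCC25 were above 18, and the SCC6 libraries held 0 to 2 UMIs each. On the raw counts the ratio of untreated SCC1 to SCC6 was 1904 with an exact 95% counting interval of 651 to 9235, and that of SCC25 to SCC6 was 1430 (489 to 6939). SCC25 and SCC1 were not distinguished by HOXD11 (-0.21 ± 0.26, adjusted p = 0.551).

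For HOXD10, a gene of the lumbar cord and the limbs, the levels were 4.13 and 3.15 CPM in SCC1 PBS, 6.38 and 3.49 in SCC1 cetuximab, 0 in all 4 SCC6 libraries, 2.80 and 1.76 in SCC25 PBS and 3.18 and 2.27 in SCC25 cetuximab. Untreated SCC1 was at least 239.9-fold and SCC25 at least 148.7-fold above SCC6. HOXD9 stood at 5.01 and 3.35 CPM in SCC1 PBS, 6.68 and 3.96 in SCC1 cetuximab, 0 and 0 in SCC6 PBS, 0.0132 and 0 in SCC6 cetuximab, 8.09 and 5.72 in SCC25 PBS and 11.1 and 6.24 in SCC25 cetuximab. A single UMI in SCC6 cetuximab replicate 1 was all that SCC6 showed of this gene, and the untreated SCC1 and SCC25 libraries were at least 272-fold and 455-fold higher. With the replicate block HOXD9 was also higher in SCC25 than in SCC1 (0.93 ± 0.19, adjusted p = 0.00454), a call that edgeR did not make without the block (adjusted p = 0.0830) and DESeq2 did (0.0477).

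HOXD8, the member retained in SCC6, was found at 4.43 and 3.71 CPM in SCC1 PBS, 2.98 and 2.88 in SCC1 cetuximab, 0.558 and 0.593 in SCC6 PBS, 0.882 and 0.856 in SCC6 cetuximab, 5.20 and 4.07 in SCC25 PBS and 3.67 and 3.14 in SCC25 cetuximab. The 4 SCC6 libraries lay below all others but held 56 to 77 UMIs each, well above the floor of 3. The log2 difference was -2.48 ± 0.24 for SCC6 minus SCC1 (adjusted p = 2.76e-05) and 2.86 ± 0.24 for SCC25 minus SCC6 (adjusted p = 1.47e-05). SCC25 and SCC1 differed by 0.38 ± 0.22 (adjusted p = 0.191).

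The anterior HOXD genes were low everywhere. HOXD4 was listed at 0 and 0.0109 CPM in SCC1 PBS, 0.0351 and 0 in SCC1 cetuximab, 0 in all 4 SCC6 libraries, 0.124 and 0.0535 in SCC25 PBS and 0.114 and 0.0860 in SCC25 cetuximab. HOXD3 showed the same order, with 0 and 0.0109 CPM in SCC1 PBS, 0 and 0 in SCC1 cetuximab, 0 in all 4 SCC6 libraries, 0.136 and 0.107 in SCC25 PBS and 0.136 and 0.105 in SCC25 cetuximab. On 1 UMI in SCC1, the ratio of SCC25 to SCC1 was 18.4 for HOXD3 (2.99 to 758) and 12.8 for HOXD4 (1.99 to 537), and SCC25 exceeded SCC6 at least 8.07-fold and 5.61-fold. DESeq2 did not call either gene between SCC25 and SCC1 (adjusted p = 0.0883 for HOXD3 and 0.151 for HOXD4). The HOXD4 call was lost whenever a PBS library of either line or an SCC25 cetuximab library was left out (adjusted p = 0.0568 to 0.175) and with library totals (0.0507). Against SCC6 the HOXD4 call was lost without either SCC6 PBS library or SCC25 PBS replicate 1 (0.0680 to 0.0696), and the HOXD3 call between SCC25 and SCC1 without SCC1 PBS replicate 1 (0.0645). HOXD3 and HOXD4 share 698 annotated bases, so reads there may be split between them. HOXD1, at the 3' end of the cluster, was counted at 0.768 and 0.631 CPM in SCC1 PBS, 0.666 and 0.673 in SCC1 cetuximab, 0.0299 and 0 in SCC6 PBS, 0 and 0.0556 in SCC6 cetuximab, 1.36 and 2.10 in SCC25 PBS and 1.27 and 1.05 in SCC25 cetuximab. Its SCC6 level rested on 3 UMIs with PBS, and the ratios to it were 46.5 (15.5 to 229) for SCC1 and 121 (41.1 to 590) for SCC25. HOXD1 was higher in SCC25 than in SCC1 with the replicate block (1.495 ± 0.50, adjusted p = 0.0299) and by DESeq2 (adjusted p = 0.00241).

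In untreated SCC6 most of the HOXB RNA came from HOXB7, at a mean of 28.5 CPM. The means of HOXB6, HOXB8, HOXB9 and HOXB13 there were 0.0397 to 0.409 CPM. HOXB2, HOXB3, HOXB4 and HOXB5, which give identity to the hindbrain and the neck, were at 0 in both untreated SCC6 libraries, while HOXB7, further along, was present there at 28.0 and 29.0 CPM, below the 34.6 CPM or more of the other lines. The summed HOXB level was 57.4 ± 8.97 CPM in untreated SCC1, 29.7 ± 1.08 in SCC6 and 56.1 ± 14.7 in SCC25 (SD, n = 2). In SCC6, 7 of 9 tested HOXB genes were below SCC1 and 7 of 9 below SCC25, against 18.6% and 22.2% of all genes.

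HOXB1, an early hindbrain gene, had 10 UMIs in all, every one of them in SCC25. HOXB2 levels were 0.0960 and 0.0979 CPM in SCC1 PBS, 0.105 and 0.0381 in SCC1 cetuximab, 0 in all 4 SCC6 libraries, 1.43 and 1.02 in SCC25 PBS and 1.61 and 1.28 in SCC25 cetuximab. SCC25 was the line with most HOXB2, 3.81 ± 0.49 above SCC1 on the log2 scale (adjusted p = 0.000511) and at least 80.7-fold above SCC6. SCC1 exceeded the SCC6 floor at least 6.58-fold.

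HOXB3 reached 1.86 and 1.21 CPM in SCC1 PBS, 1.68 and 1.40 in SCC1 cetuximab, 0 in all 4 SCC6 libraries, 4.31 and 2.64 in SCC25 PBS and 3.88 and 2.97 in SCC25 cetuximab. It was higher in SCC25 than in SCC1 by 1.38 ± 0.34 (adjusted p = 0.0123), a call lost without SCC1 PBS replicate 2 (adjusted p = 0.0970) or SCC25 PBS replicate 1 (0.0734). The 2844 bases of HOXB4 lie inside the HOXB3 annotation. HOXB4, known for expanding blood stem cells, was measured at 0.448 and 0.348 CPM in SCC1 PBS, 0.578 and 0.317 in SCC1 cetuximab, 0 in all 4 SCC6 libraries, 0.791 and 0.642 in SCC25 PBS and 0.659 and 0.631 in SCC25 cetuximab. HOXB5 gave 1.23 and 1.22 CPM in SCC1 PBS, 1.05 and 1.03 in SCC1 cetuximab, 0 and 0 in SCC6 PBS, 0.0132 and 0 in SCC6 cetuximab, 1.11 and 0.776 in SCC25 PBS and 0.954 and 0.965 in SCC25 cetuximab. Against SCC6, untreated SCC1 was at least 99.6-fold higher in HOXB3, 26.3-fold in HOXB4 and 82.9-fold in HOXB5, and SCC25 at least 226-fold, 47.7-fold and 62.1-fold. Between SCC25 and SCC1, HOXB4 passed the threshold with the replicate block (1.04 ± 0.34, adjusted p = 0.0314), and HOXB5 did not in either fit (-0.20 ± 0.36, adjusted p = 0.698).

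HOXB6 begins 1971 bases beyond HOXB5 and was detected in every SCC6 library. Its levels were 2.22 and 1.51 CPM in SCC1 PBS, 2.26 and 1.83 in SCC1 cetuximab, 0.259 and 0.555 in SCC6 PBS, 0.421 and 0.733 in SCC6 cetuximab, 1.14 and 0.481 in SCC25 PBS and 0.897 and 0.564 in SCC25 cetuximab. The 8 libraries of SCC1 and SCC6 did not overlap. SCC6 was below SCC1 (-1.86 ± 0.50, adjusted p = 0.0131), and the call was lost without SCC1 PBS replicate 1 (adjusted p = 0.0700) or SCC6 PBS replicate 1 (0.0933). With the block SCC25 was also below SCC1 (-1.11 ± 0.25, adjusted p = 0.00569) and above SCC6 (0.82 ± 0.27, adjusted p = 0.0299).

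HOXB7, which is raised in several carcinomas, was the HOXB gene shared by the lines, at 46.6 and 37.2 CPM in SCC1 PBS, 36.0 and 35.4 in SCC1 cetuximab, 28.0 and 29.0 in SCC6 PBS, 42.1 and 33.2 in SCC6 cetuximab, 50.8 and 35.4 in SCC25 PBS and 39.8 and 34.6 in SCC25 cetuximab. No comparison of lines called it without the block. The largest estimate was 0.44 ± 0.20 for SCC25 minus SCC6 (adjusted p = 0.109, with the block 0.0250). HOXB8 was low throughout, at 0.624 and 0.305 CPM in SCC1 PBS, 0.543 and 0.495 in SCC1 cetuximab, 0.150 and 0.535 in SCC6 PBS, 0.803 and 0.489 in SCC6 cetuximab, 1.32 and 1.04 in SCC25 PBS and 0.886 and 1.24 in SCC25 cetuximab. It was higher in SCC25 than in SCC1 (1.57 ± 0.53, adjusted p = 0.0378) and SCC6 (1.66 ± 0.53, adjusted p = 0.0300). Both calls were lost without either SCC25 PBS library (adjusted p = 0.0619 to 0.112). The first was also lost without any one SCC1 library (0.0519 to 0.223) or with library totals (0.0730), and the second without SCC6 PBS replicate 1 (0.1495).

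The posterior end of HOXB was low in SCC6. HOXB9 was present at 4.56 and 3.55 CPM in SCC1 PBS, 5.94 and 5.02 in SCC1 cetuximab, 0.468 and 0.350 in SCC6 PBS, 0.408 and 0.989 in SCC6 cetuximab, 3.74 and 1.72 in SCC25 PBS and 3.95 and 2.16 in SCC25 cetuximab. SCC6 was below SCC1 (-2.96 ± 0.51, adjusted p = 0.00116), and SCC25 minus SCC6 was 2.56 ± 0.50 (adjusted p = 0.00261). SCC25 and SCC1 were not distinguished by HOXB9 (-0.39 ± 0.46, adjusted p = 0.528, with the block 0.225). HOXB13, a gene of the prostate and the hindgut, was counted at 6.05 and 5.57 CPM in SCC1 PBS, 6.85 and 7.19 in SCC1 cetuximab, 0.0698 and 0.00973 in SCC6 PBS, 0.0395 and 0.0778 in SCC6 cetuximab, 1.87 and 2.02 in SCC25 PBS and 2.15 and 2.25 in SCC25 cetuximab. The order of the lines was SCC1, SCC25, SCC6, with no overlap. Log2 differences were -6.81 ± 0.52 for SCC6 minus SCC1 (adjusted p = 7.75e-06), 5.43 ± 0.52 for SCC25 minus SCC6 (adjusted p = 3.25e-05) and -1.38 ± 0.37 for SCC25 minus SCC1 (adjusted p = 0.0127). The last call was lost without either SCC1 PBS library or without SCC25 PBS replicate 1 (adjusted p = 0.0535 to 0.0667).

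HOXA genes were expressed in all lines, and here SCC6 was not the low line. The summed level was 96.8 ± 16.4 CPM in untreated SCC1, 121 ± 7.92 in SCC6 and 125.0 ± 20.6 in SCC25 (SD, n = 2). Of 11 tested genes, 6 were higher and 1 lower in SCC6 than in SCC1, and 4 higher and none lower in SCC25 than in SCC1. Of all genes, 21.5% and 18.6% were called higher and lower in SCC6, and 23.4% and 17.3% in SCC25. In the 3' part of the cluster SCC6 lay above SCC1 in HOXA3, HOXA4 and HOXA5.

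HOXA2, which specifies the second pharyngeal arch, ranged from 0.673 to 2.43 CPM. HOXA3, a gene of the thymus and parathyroid primordia, was measured at 14.0 and 12.03 CPM in SCC1 PBS, 12.4 and 14.4 in SCC1 cetuximab, 20.8 and 19.4 in SCC6 PBS, 31.3 and 18.3 in SCC6 cetuximab, 16.3 and 12.2 in SCC25 PBS and 13.7 and 15.7 in SCC25 cetuximab. HOXA4 was found at 9.34 and 8.77 CPM in SCC1 PBS, 6.52 and 6.70 in SCC1 cetuximab, 14.3 and 12.4 in SCC6 PBS, 10.7 and 8.62 in SCC6 cetuximab, 7.02 and 6.83 in SCC25 PBS and 4.17 and 5.84 in SCC25 cetuximab. HOXA5, which the lung needs, was counted at 4.67 and 4.89 CPM in SCC1 PBS, 4.98 and 5.55 in SCC1 cetuximab, 7.06 and 8.09 in SCC6 PBS, 9.17 and 5.39 in SCC6 cetuximab, 8.52 and 9.20 in SCC25 PBS and 5.33 and 8.67 in SCC25 cetuximab. SCC6 exceeded SCC1 by 0.96 ± 0.26 in HOXA3 (adjusted p = 0.0138), 0.90 ± 0.23 in HOXA4 (0.00964) and 0.99 ± 0.30 in HOXA5 (0.0239). With library totals in place of TMM none of these 3 passed (0.62, 0.56 and 0.66, adjusted p = 0.0645 to 0.0961). Each of them also lost the call when 1 of several PBS libraries was left out: either SCC1 replicate or SCC6 replicate 1 for all 3, and SCC6 replicate 2 for HOXA5 (adjusted p = 0.0569 to 0.135). HOXA2 passed with the replicate block (0.99 ± 0.23, adjusted p = 0.00664) and by DESeq2 (adjusted p = 0.0446). HOXA4 was also lower in SCC25 than in SCC6 (-1.10 ± 0.23, adjusted p = 0.00356), the only HOX gene called in that direction there. With the block HOXA3 was lower in SCC25 than in SCC6 (-0.65 ± 0.19, adjusted p = 0.0164). HOXA5 was higher in SCC25 than in SCC1 (1.08 ± 0.30, adjusted p = 0.0161), but not without either SCC1 PBS library or SCC25 PBS replicate 2 (0.0596 to 0.105).

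HOXA6 went the other way, at 2.46 and 1.43 CPM in SCC1 PBS, 2.03 and 1.37 in SCC1 cetuximab, 0.229 and 0.409 in SCC6 PBS, 0.934 and 0.478 in SCC6 cetuximab, 2.24 and 1.15 in SCC25 PBS and 1.41 and 0.994 in SCC25 cetuximab. It was the HOXA gene called lower in SCC6 than in SCC1 (-2.26 ± 0.48, adjusted p = 0.00411), and it was also lower than in SCC25 (SCC25 minus SCC6 2.25 ± 0.48, adjusted p = 0.00423). HOXA7 showed 30.4 and 24.4 CPM in SCC1 PBS, 22.1 and 25.4 in SCC1 cetuximab, 23.1 and 37.0 in SCC6 PBS, 52.9 and 42.8 in SCC6 cetuximab, 30.2 and 21.9 in SCC25 PBS and 26.2 and 20.8 in SCC25 cetuximab and was called in no comparison of lines. HOXA10, which patterns the uterus and the thigh, gave 35.4 and 25.1 CPM in SCC1 PBS, 36.8 and 31.0 in SCC1 cetuximab, 34.9 and 36.5 in SCC6 PBS, 50.7 and 37.4 in SCC6 cetuximab, 41.9 and 31.7 in SCC25 PBS and 32.6 and 31.1 in SCC25 cetuximab. It was called in no comparison by edgeR without the block, and DESeq2 called it between SCC6 and SCC1 (0.60, adjusted p = 0.0256). With the block HOXA10 was higher than in SCC1 both in SCC6 (0.60 ± 0.14, adjusted p = 0.00736) and in SCC25 (0.48 ± 0.14, adjusted p = 0.0186). The annotated HOXA3 gene spans HOXA4, HOXA5 and HOXA6, and antisense RNAs overlap HOXA3 to HOXA7 and HOXA10, so reads in shared bases may belong to either.

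HOXA9, a partner of MEIS1 in leukaemia, distinguished SCC25 clearly, with 1.52 and 1.18 CPM in SCC1 PBS, 1.30 and 1.37 in SCC1 cetuximab, 1.53 and 1.89 in SCC6 PBS, 3.59 and 3.01 in SCC6 cetuximab, 16.6 and 13.5 in SCC25 PBS and 14.1 and 12.5 in SCC25 cetuximab. All 4 SCC25 libraries were at or above 12.5 and all 8 others at or below 3.59. SCC25 was above SCC1 by 3.68 ± 0.23 (adjusted p = 3.16e-06) and above SCC6 by 3.00 ± 0.22 (adjusted p = 6.89e-06). The neighbours HOXA7 and HOXA10, which lie 5762 and 5067 bases away, showed no such step. SCC6 was also above SCC1 in HOXA9 (0.69 ± 0.21, adjusted p = 0.0271), a call lost with library totals (0.35, adjusted p = 0.2696) and without SCC1 PBS replicate 1, SCC1 PBS replicate 2 or SCC6 PBS replicate 2 (0.0715, 0.178 and 0.102).

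HOXA11, another limb and uterus gene, was measured at 3.84 and 2.56 CPM in SCC1 PBS, 2.86 and 2.50 in SCC1 cetuximab, 2.56 and 2.57 in SCC6 PBS, 3.46 and 2.67 in SCC6 cetuximab, 7.47 and 4.93 in SCC25 PBS and 6.87 and 6.26 in SCC25 cetuximab. It was higher in SCC25 than in SCC1 (1.15 ± 0.26, adjusted p = 0.00561, without SCC1 PBS replicate 2 0.0644) and SCC6 (1.12 ± 0.26, adjusted p = 0.00638). HOXA13, which shapes the hands, the feet and the genital tract, stood at 0.0800 and 0.109 CPM in SCC1 PBS, 0.158 and 0.190 in SCC1 cetuximab, 0.309 and 0.438 in SCC6 PBS, 0.921 and 0.467 in SCC6 cetuximab, 1.96 and 2.09 in SCC25 PBS and 1.52 and 2.32 in SCC25 cetuximab. The 3 untreated lines were fully separated, in the order SCC25, SCC6, SCC1. The differences were 4.56 ± 0.48 for SCC25 minus SCC1 (adjusted p = 5.95e-05), 2.30 ± 0.40 for SCC25 minus SCC6 (adjusted p = 0.00141) and 2.26 ± 0.48 for SCC6 minus SCC1 (adjusted p = 0.00388).

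In HOXC the high line was SCC25. Summed levels were 43.1 ± 1.32 CPM in untreated SCC1, 23.6 ± 4.68 in SCC6 and 100.2 ± 5.73 in SCC25 (SD, n = 2). SCC25 was above SCC1 in 7 of 9 genes and above SCC6 in 7 of 9, against 23.4% and 22.2% of all genes. SCC6 was below SCC1 in 3 of 9 and above it in none, against 18.6% and 21.5% of all genes. The annotations of HOXC4, HOXC5 and HOXC6 overlap over 13936 bases, and reads there may be split between the 3 genes.

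HOXC4 was counted at 0.592 and 0.435 CPM in SCC1 PBS, 0.491 and 0.482 in SCC1 cetuximab, 0.419 and 0.837 in SCC6 PBS, 1.43 and 1.30 in SCC6 cetuximab, 1.69 and 1.27 in SCC25 PBS and 3.10 and 1.41 in SCC25 cetuximab. HOXC5 had 0.384 and 0.337 CPM in SCC1 PBS, 0.210 and 0.279 in SCC1 cetuximab, 0.448 and 0.652 in SCC6 PBS, 0.829 and 0.933 in SCC6 cetuximab, 1.71 and 1.16 in SCC25 PBS and 1.25 and 0.870 in SCC25 cetuximab. SCC25 exceeded SCC1 in HOXC4 by 1.72 ± 0.43 (adjusted p = 0.00966, without SCC1 PBS replicate 2 0.0748) and SCC6 with the block (1.14 ± 0.33, adjusted p = 0.0175) or by DESeq2 (0.0365). For HOXC5 the differences were 2.17 ± 0.35 from SCC1 (adjusted p = 0.000934) and 1.23 ± 0.34 from SCC6 (adjusted p = 0.0147, without SCC6 PBS replicate 1 0.0921 and without SCC25 PBS replicate 1 0.0878). SCC6 was above SCC1 in HOXC5 with the block (0.93 ± 0.29, adjusted p = 0.0242).

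HOXC6, a thoracic gene that also marks the mammary gland, was at 5.57 and 4.52 CPM in SCC1 PBS, 6.05 and 5.48 in SCC1 cetuximab, 3.09 and 4.16 in SCC6 PBS, 8.63 and 6.02 in SCC6 cetuximab, 14.2 and 8.56 in SCC25 PBS and 13.5 and 10.2 in SCC25 cetuximab. HOXC8 gave 3.34 and 2.47 CPM in SCC1 PBS, 3.37 and 3.20 in SCC1 cetuximab, 3.26 and 3.84 in SCC6 PBS, 8.76 and 5.17 in SCC6 cetuximab, 10.8 and 5.88 in SCC25 PBS and 10.9 and 7.33 in SCC25 cetuximab. Both were higher in SCC25 than in SCC1, by 1.36 ± 0.28 (adjusted p = 0.00332) and 1.70 ± 0.34 (adjusted p = 0.00278). Against SCC6 the differences were 1.501 ± 0.28 (adjusted p = 0.00199) and 1.07 ± 0.33 (adjusted p = 0.0253), the latter lost without either SCC6 PBS library or SCC25 PBS replicate 1 (0.0719 to 0.1905). With the block SCC6 was above SCC1 in HOXC8 (0.65 ± 0.22, adjusted p = 0.0343).

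HOXC9 and HOXC10, which mark thoracic and lumbar levels of the spinal cord, separated all untreated lines. HOXC9 levels were 5.81 and 5.14 CPM in SCC1 PBS, 5.64 and 5.52 in SCC1 cetuximab, 2.15 and 2.77 in SCC6 PBS, 6.71 and 4.13 in SCC6 cetuximab, 15.3 and 15.2 in SCC25 PBS and 20.3 and 16.2 in SCC25 cetuximab. For HOXC10 they were 7.28 and 7.90 CPM in SCC1 PBS, 6.82 and 7.93 in SCC1 cetuximab, 1.51 and 2.72 in SCC6 PBS, 3.04 and 3.28 in SCC6 cetuximab, 35.3 and 33.2 in SCC25 PBS and 32.7 and 37.9 in SCC25 cetuximab. The lowest SCC25 library, at 32.7, lay above the highest library of the other lines, at 7.93. SCC25 was above SCC1 by 1.67 ± 0.25 in HOXC9 (adjusted p = 0.000542) and 2.36 ± 0.26 in HOXC10 (adjusted p = 9.07e-05), and above SCC6 by 2.49 ± 0.26 (adjusted p = 5.39e-05) and 3.89 ± 0.28 (adjusted p = 6.58e-06). SCC6 was below SCC1 in HOXC10 (-1.53 ± 0.26, adjusted p = 0.00115) and in HOXC9 (-0.82 ± 0.25, adjusted p = 0.0238), the second lost without SCC1 PBS replicate 1 or 2 or SCC6 PBS replicate 1 (0.0845 to 0.121).

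HOXC11 was listed at 4.72 and 4.39 CPM in SCC1 PBS, 5.801 and 6.15 in SCC1 cetuximab, 2.97 and 4.47 in SCC6 PBS, 7.75 and 6.85 in SCC6 cetuximab, 9.77 and 8.38 in SCC25 PBS and 8.97 and 11.4 in SCC25 cetuximab. It was higher in SCC25 than in SCC1 (1.19 ± 0.23, adjusted p = 0.00243) and SCC6 (1.15 ± 0.23, adjusted p = 0.00289). HOXC12 was the HOXC gene of SCC1, with 0.416 and 0.326 CPM in SCC1 PBS, 0.561 and 0.419 in SCC1 cetuximab, 0 and 0.0292 in SCC6 PBS, 0 and 0.0222 in SCC6 cetuximab, 0.0865 and 0.00892 in SCC25 PBS and 0.0227 and 0.0287 in SCC25 cetuximab. Its ratio of SCC1 to SCC6 was 24.6 on 3 UMIs in SCC6 (7.98 to 123). SCC25 was below SCC1 (-2.86 ± 0.85, adjusted p = 0.0211), a call lost without either SCC1 PBS library or SCC25 PBS replicate 2 (0.0617 to 0.125). HOXC13, which drives hair and nail keratin genes, reached 16.0 and 16.7 CPM in SCC1 PBS, 19.5 and 27.2 in SCC1 cetuximab, 6.41 and 7.38 in SCC6 PBS, 9.97 and 10.5 in SCC6 cetuximab, 15.4 and 22.6 in SCC25 PBS and 16.0 and 32.8 in SCC25 cetuximab. SCC25 was above SCC6 (1.34 ± 0.35, adjusted p = 0.0118), but not without SCC6 PBS replicate 1 (0.0710) or SCC25 PBS replicate 2 (0.0876). SCC6 was below SCC1 with the block (-0.91 ± 0.15, adjusted p = 0.00101), with library totals (-1.24, adjusted p = 0.0121) or by DESeq2 (-0.90, 0.0408), and SCC25 was above SCC1 with the block (0.39 ± 0.15, 0.0492).

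The levels were also described as shares of cells, which follow largely from the summed levels and are no separate support. To compare shares of cells at equal depth, every cell was thinned to 15000 UMIs, which left 23063 cells and dropped 851 shallower ones, between 14 and 262 per library. A UMI from any HOXD gene was then found in 48.1% ± 3.93 of untreated SCC1 cells, 43.4% ± 7.65 of SCC25 cells and 1.06% ± 0.159 of SCC6 cells (SD, n = 2). For HOXA the shares were 74.6% ± 6.29, 81.8% ± 5.59 and 81.4% ± 1.53 in the same order, for HOXB 57.0% ± 5.13, 56.1% ± 10.1 and 35.7% ± 1.39, and for HOXC 48.4% ± 0.778, 76.0% ± 2.09 and 29.6% ± 5.14. The median thinned cell held UMIs of 3 HOX genes in SCC1, 4 in SCC25 and 2 in untreated SCC6.

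**Figure D2:**
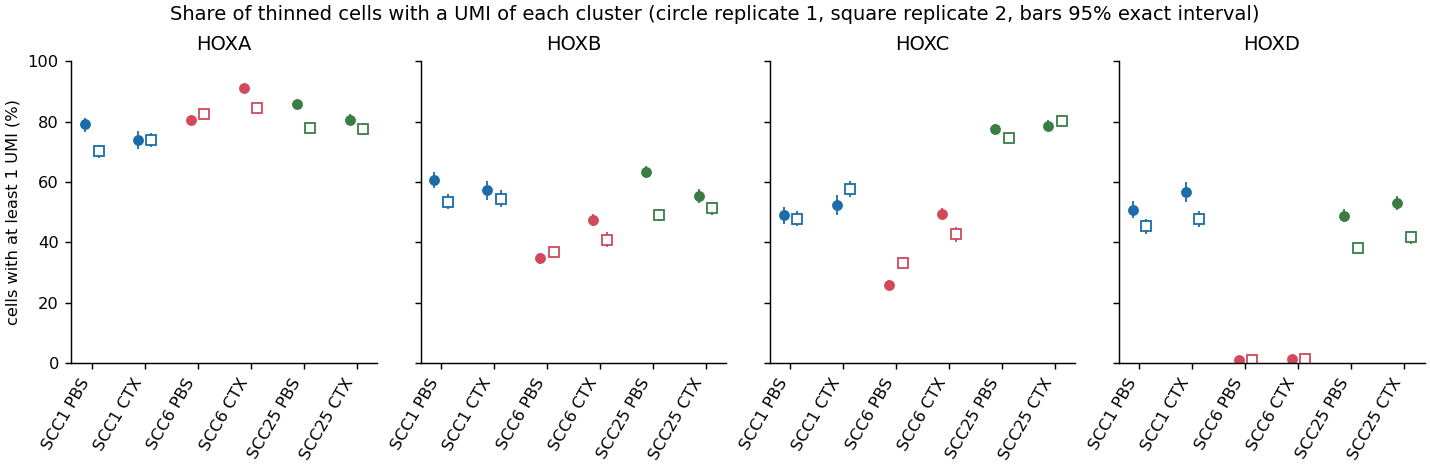
Percent of thinned cells (15000 UMIs each) with at least 1 UMI of a HOX gene, by cluster, in each library of the 6 groups, where CTX stands for cetuximab. HOXD shares lie between 38.0% and 56.7% in SCC1 and SCC25 and between 0.944% and 1.54% in SCC6, while HOXA shares lie at or above 70.1% in all 12 libraries.

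Genes that these cells should lack set the background for such shares. PTPRC, CD3E, ALB and HBB were found in at most 0.137% of thinned cells of a library. HOXD11 was found in 34.65% of thinned cells of SCC1 PBS replicate 1 (95% exact interval 31.97% to 37.40%) and 32.01% of replicate 2. In SCC25 PBS the shares were 31.67% and 23.69%. In SCC6 PBS 1 of 2652 and 0 of 2436 cells held a HOXD11 UMI, which is at the background. In SCC6, HOXB13, at 0.0411% to 0.0772%, lay under that 0.137%, which is a value of HBB in SCC25 PBS replicate 1. Within SCC6 each of these background genes reached at most 0.061% of thinned cells and 2 UMIs in a library. HOXB13 had 1 to 7 UMIs there, and whether it lies above the background of SCC6 was not tested. HOXD8, at 0.944% to 1.51%, was above both values. Intervals and floors cover counting error only.

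Within a line, the variance of HOX counts between cells lay close to their mean. The ratio of the variance to the mean of the thinned counts, which is 1 for counting noise alone, was 1.02 to 1.10 for HOXD11 in the 8 SCC1 and SCC25 libraries. It was 1.04 to 1.19 for HOXA9 in SCC25 and 1.01 to 1.07 for HOXC10 in SCC25. The highest ratio of any HOX gene was 1.34, for HOXA5 in SCC6 PBS replicate 1. At mean counts this low the ratio stays near 1 even where cells differ, so it cannot show that cells are alike. No cell held more than 14 UMIs of 1 HOX gene, a value reached by HOXB7 in SCC25 cetuximab replicate 1.

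The second question was whether 5 days of cetuximab changed this code. In SCC1 and SCC25 no HOX gene passed the threshold, and 0.0168% and 0% of all genes did, so that these tests had few calls anywhere. At an unadjusted p under 0.05 the count was 1 in SCC1, HOXD8, and 0 in SCC25. DESeq2 called none in either line (1.53% and 0.564% of all genes). The fit with the replicate block called none either, with 4.45% and 0.978% of all genes called. In SCC6 edgeR also called none, where 3.81% of all genes were called, and 7 HOX genes had an unadjusted p under 0.05. The share of all genes at that unadjusted level is not given. Such counts, here and for the further lists, are therefore no support. Across the 3 lines together HOXA4 was called, 1 of 37, against 3.67% of all genes in either direction and 1.13% in its own. A difference of the cetuximab effect between the lines was found for none of the HOX genes and for 0% of all genes (unadjusted p under 0.05 for 2, HOXA9 and HOXD8). DESeq2 found none (1.54% of all genes), and neither did the fit with the block (1.29%).

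**Figure D3:**
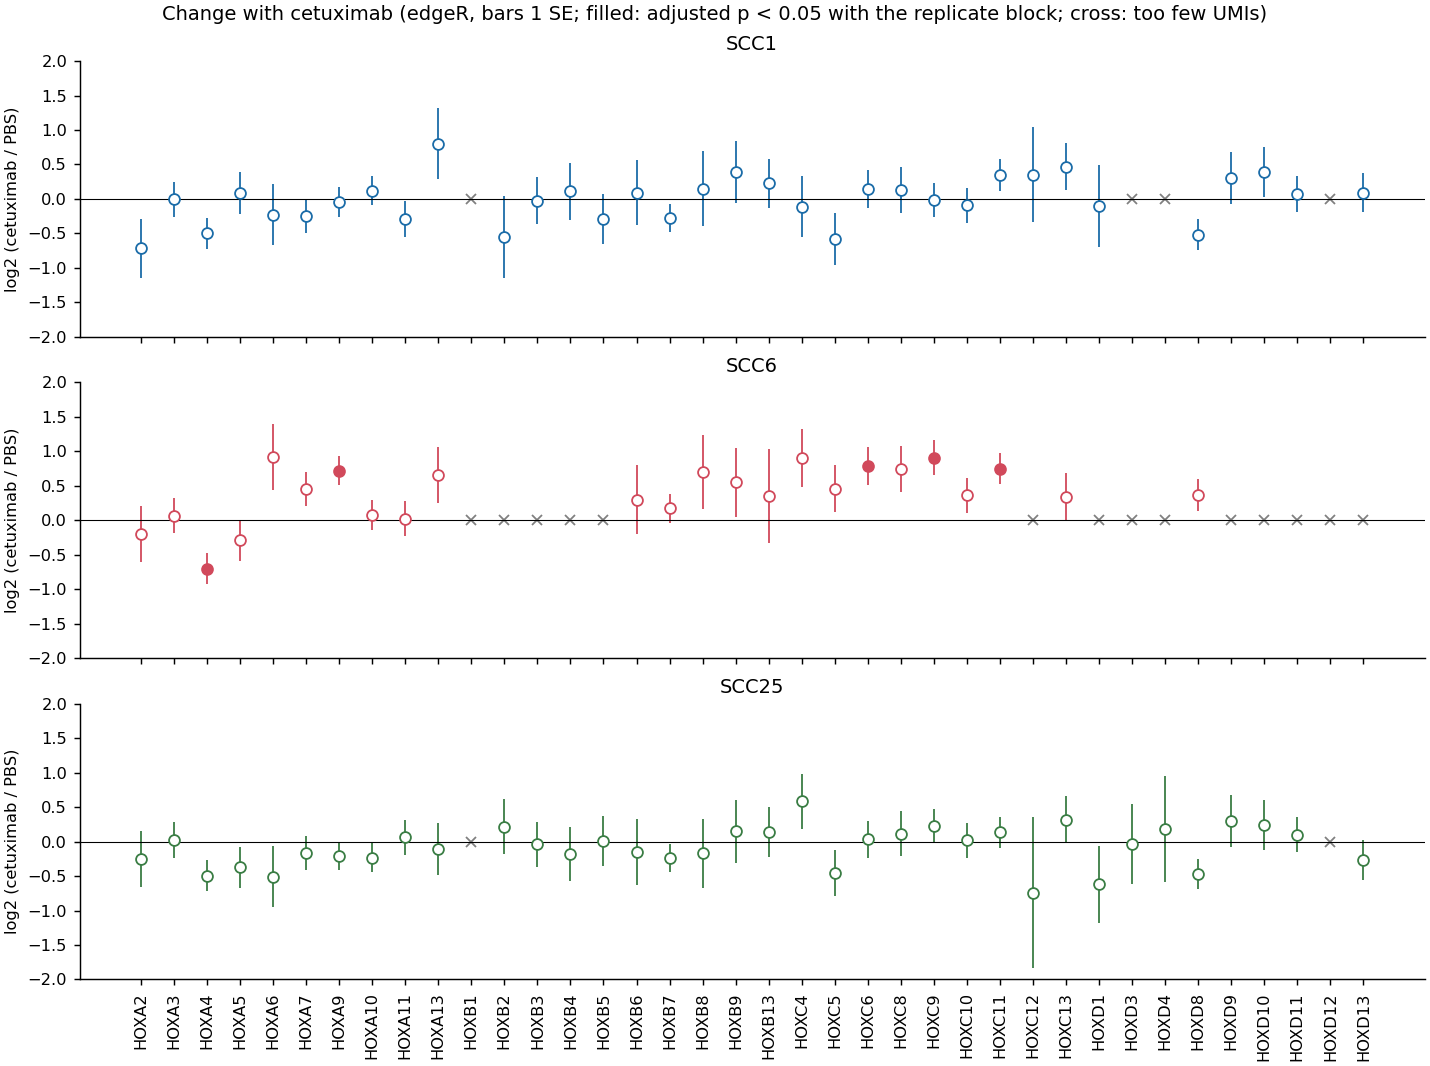
Log2 fold change of 38 HOX genes with cetuximab against PBS in SCC1, SCC6 and SCC25, with bars of 1 SE from edgeR. Filled symbols mark an adjusted p under 0.05 with the replicate block, which are 5 of the genes shown in SCC6 and none in SCC1 or SCC25, and crosses mark genes with too few UMIs for a fold change.

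In SCC6 the HOX genes with the clearest differences were members of HOXA and HOXC. With the replicate number as a block, 4 HOX genes were higher with cetuximab, HOXA9, HOXC6, HOXC9 and HOXC11, and 2 were lower, HOXA4 among them, against 9.94% and 10.1% of all genes. The 6 of 37 HOX genes called in that fit are a smaller share than the 20.1% of all genes called, so the count says nothing about HOX genes in particular. DESeq2 without the block called HOXA4, HOXA9, HOXC9 and HOXC11, with 9.34% of all genes called. Scaling mattered here as well, since library totals in place of TMM shifted the log2 fold changes by 0.23 at the median over all genes. With the block and library totals, 8 HOX genes were higher (HOXA9, HOXC4, HOXC6, HOXC8, HOXC9, HOXC10, HOXC11 and HOXC13) and none was lower.

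HOXC9 had 2.15 and 2.77 CPM in SCC6 PBS and 6.71 and 4.13 CPM in SCC6 cetuximab. The 2 groups did not overlap, and the log2 fold change was 0.91 ± 0.25 (adjusted p = 0.0742, with the block 0.0300). HOXC11 went from 2.97 and 4.47 to 7.75 and 6.85 CPM, by 0.75 ± 0.23 (adjusted p = 0.101, with the block 0.0301). HOXC6 went from 3.09 and 4.16 to 8.63 and 6.02 CPM, by 0.79 ± 0.28 (adjusted p = 0.145, with the block 0.0315). These 3 genes stand in the cluster whose summed level in SCC6 was 20.25 and 26.9 CPM with PBS and 47.1 and 38.2 CPM with cetuximab. HOXA9 moved from 1.53 and 1.89 to 3.59 and 3.01 CPM, by 0.72 ± 0.21 (adjusted p = 0.0882, with the block 0.0250), and remained below the lowest SCC25 library at 12.5 CPM.

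In the other direction, HOXA4 was at 14.3 and 12.4 CPM in SCC6 PBS and at 10.7 and 8.62 CPM in SCC6 cetuximab, -0.71 ± 0.22 on the log2 scale (adjusted p = 0.114, with the block 0.0148). HOXA4 was not called in SCC6 with library totals, with or without the block. The median log2 fold change in SCC6 was 0.34 over the 37 HOX genes, or 0.41 over the 26 with enough UMIs, and 0.00 over all genes. Markers of cell types moved with the treatment in the same libraries. The squamous sum was 991.6 to 1084 CPM with PBS and 2414 to 3151 CPM with cetuximab, the fibroblast sum 0.947 to 2.98 CPM and 23.1 to 27.9 CPM, and the leukocyte sum 11.9 to 25.5 CPM and 3.41 to 4.36 CPM. Their part in the HOX values was not tested.

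The genes that SCC6 lacked stayed low with the drug. HOXD10, HOXD13, HOXD3, HOXD4, HOXB2, HOXB3 and HOXB4 had no UMI in any SCC6 library, HOXB5 and HOXD9 had 1 each, both in SCC6 cetuximab replicate 1, and HOXD11 had 3 with PBS and 1 with cetuximab. HOXD8 was at 0.558 and 0.593 CPM with PBS and 0.882 and 0.856 CPM with cetuximab (0.36 ± 0.23, adjusted p = 0.429), below the lowest library of the other lines at 2.88 CPM. The share of thinned SCC6 cells with a HOXD UMI was 1.06% ± 0.159 with PBS and 1.44% ± 0.142 with cetuximab (SD, n = 2).

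HOXA4 was the gene called across lines. Its mean log2 fold change over the 3 lines was -0.57 ± 0.12 (adjusted p = 0.0295), and it was lower in both cetuximab libraries than in both PBS libraries in each of SCC1, SCC6 and SCC25. The estimates were -0.50 ± 0.23 (SCC1), -0.71 ± 0.22 (SCC6) and -0.50 ± 0.23 (SCC25). This call was lost in 8 of the 12 fits that left out 1 library (adjusted p = 0.0551 to 0.0827), namely each of the SCC1 PBS, SCC6 PBS and SCC6 cetuximab libraries, SCC1 cetuximab replicate 1 and SCC25 cetuximab replicate 1. It was also lost with library totals without the block, but not with both the block and library totals (-0.47, adjusted p = 0.0197). With the block HOXC13 joined it (0.35 ± 0.09, adjusted p = 0.0350), and 11.6% of all genes were called in that fit.

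**Figure D4:**
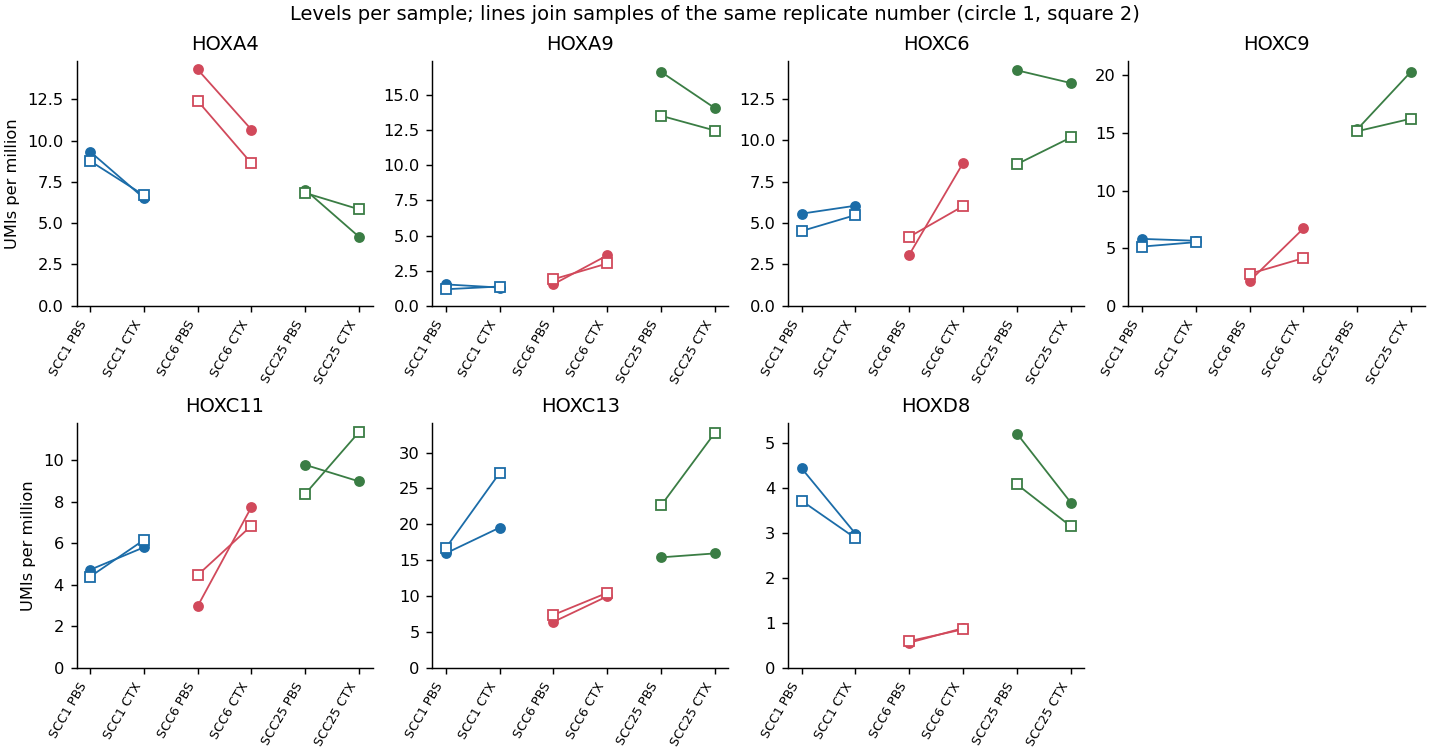
Levels of 7 HOX genes (HOXA4, HOXA9, HOXC6, HOXC9, HOXC11, HOXC13 and HOXD8) in CPM with PBS and with cetuximab (CTX), with a line joining the 2 libraries of a replicate number in each of SCC1, SCC6 and SCC25. HOXA4 falls along all 6 lines, and HOXA9, HOXC6, HOXC9 and HOXC11 rise along both SCC6 lines.

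HOXC13 differed between the replicate numbers as well as between the treatments. It was at 16.0 and 16.7 CPM in SCC1 PBS and 19.5 and 27.2 CPM in SCC1 cetuximab. In SCC25 it was at 15.4 and 22.6 CPM in PBS and 16.0 and 32.8 CPM with cetuximab, so the replicates lay further apart than the treatments did. HOXD8 was lower with cetuximab in both replicates of SCC1 (-0.52 ± 0.22, adjusted p = 0.536) and of SCC25 (-0.47 ± 0.22, adjusted p = 0.876). It was higher in both of SCC6 (0.36 ± 0.23), and the test of that difference between lines gave an adjusted p of 0.631. For HOXA9 the same test gave 0.563.

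Genes that work with or on the HOX clusters were described by the same tests. Of 18 long noncoding RNAs of the clusters, 16 were in the tables and 13 passed the filter. A gene of this or a later list can also pass that filter through the line in which it is high. Counts over these lists therefore describe them and are no support. Between SCC6 and SCC1, 5 were higher and 5 lower in SCC6, against 21.5% and 18.6% of all genes. Between SCC25 and SCC1, 10 were higher and 1 lower in SCC25, against 23.4% and 17.3%. Between SCC25 and SCC6, 12 were higher and none lower, against 22.2% and 18.7%. The medians were -0.50, 1.79 and 2.39 on the log2 scale against 0.00, 0.04 and 0.00 over all genes. Cetuximab changed none of them without the block (unadjusted p under 0.05 for 2 in SCC1, 5 in SCC6 and 0 in SCC25). HAGLROS, which lies between HOXD3 and HOXD1, was lowest in SCC6, at 4.34 and 3.43 CPM in SCC1 PBS, 1.56 and 2.78 in SCC1 cetuximab, 0.159 and 0.136 in SCC6 PBS, 0.447 and 0.400 in SCC6 cetuximab, 6.34 and 4.22 in SCC25 PBS and 3.25 and 3.84 in SCC25 cetuximab. HOXC13-AS was highest in SCC1, at 27.1 and 24.6 CPM in SCC1 PBS, 18.7 and 21.2 in SCC1 cetuximab, 2.30 and 2.88 in SCC6 PBS, 5.70 and 4.36 in SCC6 cetuximab, 10.1 and 8.17 in SCC25 PBS and 8.995 and 8.66 in SCC25 cetuximab. With the block it was higher in SCC6 with cetuximab (0.72 ± 0.17, adjusted p = 0.0238, without it 0.0825 and by DESeq2 0.0134). In HOXA11-AS the order was SCC25, SCC6, SCC1, at 0.704 and 0.577 CPM in SCC1 PBS, 0.561 and 0.888 in SCC1 cetuximab, 1.32 and 2.26 in SCC6 PBS, 4.24 and 3.08 in SCC6 cetuximab, 10.3 and 10.3 in SCC25 PBS and 6.21 and 9.12 in SCC25 cetuximab. HOXA-AS2 followed the same order, at 5.13 and 5.45 CPM in SCC1 PBS, 4.22 and 5.52 in SCC1 cetuximab, 9.46 and 10.8 in SCC6 PBS, 14.4 and 8.89 in SCC6 cetuximab, 23.2 and 27.1 in SCC25 PBS and 16.98 and 28.8 in SCC25 cetuximab. HOTAIRM1, a noncoding RNA of the HOXA cluster, was also highest in untreated SCC25, at 23.0 and 19.9 CPM in SCC1 PBS, 21.6 and 22.7 in SCC1 cetuximab, 38.0 and 33.0 in SCC6 PBS, 34.4 and 26.6 in SCC6 cetuximab, 72.6 and 57.5 in SCC25 PBS and 37.1 and 58.6 in SCC25 cetuximab. HOXA10-AS was higher in SCC6 and SCC25 than in SCC1, at 13.4 and 11.5 CPM in SCC1 PBS, 9.73 and 12.1 in SCC1 cetuximab, 21.7 and 20.4 in SCC6 PBS, 29.9 and 21.2 in SCC6 cetuximab, 30.0 and 15.7 in SCC25 PBS and 21.4 and 19.96 in SCC25 cetuximab. HOXD-AS2, named after its values were seen, had no UMI in SCC1 or SCC6 and 8.40 and 4.34 CPM in SCC25 PBS, at least 311-fold and 409-fold more. Its annotated position is chr2:176134841-176137098, between HOXD8 and HOXD4.

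The TALE homeodomain proteins (PBX, MEIS and PKNOX) bind DNA together with HOX proteins. Of 9 genes 8 were tested. Of these 4 were higher and none lower in SCC6 than in SCC1, 2 higher and 1 lower in SCC25 than in SCC1, and 1 higher and 3 lower in SCC25 than in SCC6 (medians 0.40, 0.23 and -0.64 on the log2 scale). These 4, 3 and 4 calls are near the 40.2%, 40.8% and 40.9% of all genes called. MEIS3 was measured at 0.0640 and 0.0544 CPM in SCC1 PBS, 0.0876 and 0.102 in SCC1 cetuximab, 2.17 and 4.17 in SCC6 PBS, 20.2 and 12.8 in SCC6 cetuximab, 0.531 and 0.392 in SCC25 PBS and 0.613 and 0.707 in SCC25 cetuximab. It was the TALE gene called with cetuximab without the block, rising by 2.16 ± 0.33 in SCC6 (adjusted p = 0.00957) and 1.30 ± 0.32 across lines (adjusted p = 0.0457). Of all genes, 3.81% and 3.67% were called in these 2 comparisons. The SCC6 call was lost without SCC6 cetuximab replicate 1 (adjusted p = 0.0765) or SCC6 PBS replicate 1 (0.101), and the call across lines without any of 10 libraries (0.0578 to 0.135). MEIS1 was also higher in SCC6 with cetuximab with the block (1.21 ± 0.21, adjusted p = 0.00681) and by DESeq2 (0.00668), but not in edgeR without the block (0.0543). PBX2 was higher in SCC6 than in SCC1 (0.87 ± 0.23, adjusted p = 0.0134), a call lost without either SCC1 PBS library or SCC6 PBS replicate 1. MEIS2, PBX3 and PKNOX1 were called in no comparison without the block.

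Of 20 Polycomb and trithorax genes, whose products set the chromatin state of HOX clusters, all were tested. Compared with SCC1, 3 were higher and none lower in SCC6, and 2 higher and 6 lower in SCC25. Compared with SCC6, none was higher and 5 lower in SCC25. With 3, 8 and 5 of 20 called, these shares lie at or below those of all genes, 40.2%, 40.8% and 40.9%. The block raised the counts to 10, 17 and 9, where 57.5%, 58.8% and 58.1% of all genes were called. Cetuximab changed none without the block (unadjusted p under 0.05 for 1 in SCC1 and 3 across lines). With the block it changed 2 in SCC6, KDM6A upwards and EED downwards, and 2 across lines, KDM6A upwards and SUZ12 downwards, against 20.1% and 11.6% of all genes. The median log2 differences between lines were 0.15, -0.33 and -0.27. PCGF2 was lower in SCC25 than in SCC1 (-1.06 ± 0.21, adjusted p = 0.00249) and SCC6 (-0.91 ± 0.21, adjusted p = 0.00557). SUZ12, a core subunit of Polycomb repressive complex 2, was lower in SCC25 than in SCC1 (-1.23 ± 0.35, adjusted p = 0.0177). JARID2, a cofactor of that complex, was higher in both SCC6 (1.16 ± 0.35, adjusted p = 0.0223) and SCC25 (1.18 ± 0.35, adjusted p = 0.0203) than in SCC1.

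Retinoic acid switches on anterior HOX genes in the embryo. Of 16 genes of its synthesis, transport and receptors 15 were tested. Of these 7 were higher and 2 lower in SCC6 than in SCC1, 10 higher and 1 lower in SCC25 than in SCC1, and 6 higher and 2 lower in SCC25 than in SCC6 (medians 1.02, 1.89 and 0.64, against 0.00, 0.04 and 0.00 over all genes). The shares of all genes called higher and lower were 21.5% and 18.6%, 23.4% and 17.3%, and 22.2% and 18.7%. The block gave 11, 12 and 13 calls, where 57.5%, 58.8% and 58.1% of all genes were called. In SCC6 without the block, 1 gene of the list was called with cetuximab, against 3.81% of all genes. DHRS9, a retinol dehydrogenase and the gene of this list called with cetuximab without the block, was lower with cetuximab in SCC6 (-3.53 ± 0.59, adjusted p = 0.0144), going from 0.538 and 0.321 CPM to 0.0658 and 0.0222 CPM, a call lost without either SCC6 cetuximab library or SCC6 PBS replicate 1 (0.0664 to 0.113). With the block cetuximab changed 4 genes of the list in SCC6, 1 upwards and 3 downwards, DHRS9, ALDH1A3 and DHRS3 being the lower ones, against 20.1% of all genes. It also changed 1 in SCC1, CRABP2 downwards, and 1 in SCC25, DHRS9 downwards, and the effect differed between lines for 1. The shares of all genes called there were 4.45%, 0.978% and 1.29%.

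Homeobox genes of the head and the pharyngeal arches made up a further list. Of 28 genes 26 were tested. Of these 11 were higher and 7 lower in SCC6 than in SCC1, 15 higher and 7 lower in SCC25 than in SCC1, and 13 higher and 2 lower in SCC25 than in SCC6 (medians 0.38, 2.02 and 1.29, against 0.00, 0.04 and 0.00 over all genes). Of all genes, 21.5% and 18.6%, 23.4% and 17.3%, and 22.2% and 18.7% were called higher and lower. Without the block, cetuximab in SCC6 changed 2 of them, 1 in each direction, where 3.81% of all genes were called. With the block it changed 9, where 20.1% of all genes were called: DLX1 to DLX5 and BARX1 were higher, and PITX1, BARX2 and IRX3 were lower. That fit also called DLX5 higher in SCC1 and PITX1 lower in SCC25, and a difference of the effect between lines for 1 gene. Of all genes, 4.45%, 0.978% and 1.29% were called in these 3 comparisons. PITX1, a hindlimb and oral gene, was measured at 40.9 and 38.1 CPM in SCC1 PBS, 36.7 and 38.3 in SCC1 cetuximab, 95.6 and 81.6 in SCC6 PBS, 49.2 and 44.3 in SCC6 cetuximab, 142 and 125 in SCC25 PBS and 75.6 and 87.6 in SCC25 cetuximab. It was lower with cetuximab in SCC6 (-1.16 ± 0.19, adjusted p = 0.0122) and across lines (-0.67 ± 0.16, adjusted p = 0.0383). DLX2, a gene of the jaw, was measured at 23.4 and 25.9 CPM in SCC1 PBS, 32.4 and 28.0 in SCC1 cetuximab, 0.767 and 1.22 in SCC6 PBS, 5.26 and 4.36 in SCC6 cetuximab, 5.65 and 5.74 in SCC25 PBS and 2.85 and 4.63 in SCC25 cetuximab. It was higher with cetuximab in SCC6 (2.05 ± 0.29, adjusted p = 0.00851). The DLX2 call was lost without replicate 1 of either SCC6 group (adjusted p = 0.0645 and 0.101). The PITX1 call in SCC6 was lost without either of these or SCC6 cetuximab replicate 2 (0.0608 to 0.107), and the PITX1 call across lines without any of 10 libraries (0.0582 to 0.0998).

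The ParaHox and CDX genes, the sister group of the HOX clusters, were low except for CDX2 in SCC25, and 2 of 6 passed the filter. CDX2, which drives posterior HOX genes and the intestinal lining, was found at 0 and 0.0109 CPM in SCC1 PBS, 0 and 0 in SCC1 cetuximab, 0 in all 4 SCC6 libraries, 6.99 and 8.94 in SCC25 PBS and 4.43 and 7.87 in SCC25 cetuximab. Untreated SCC25 was at least 550.2-fold above SCC6, and on 1 UMI in SCC1 the ratio to SCC1 was 1255 (225 to 49590). SCC25 is also the line with the highest HOXA9, HOXC9 and HOXC10 levels, and no relation between these genes was tested over 3 lines. PDX1, the other gene tested, was between 0.00973 and 0.352 CPM in all libraries.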

How the data were processed

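Counts of UMIs per gene and cell were used as deposited, and the submitters' processing notes name Cell Ranger and GRCh38 without versions. Barcodes were filtered by the authors before deposit, and doublets were not called. The strand used in counting is not given in the sources used here. A 3' UMI count is not divided by gene length, so levels were compared between samples and not between genes. Of the 33538 rows, 24 symbols stood on more than 1 row and were summed, which left 33514 symbols, of which 25899 had a UMI.

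The members and all gene lists were chosen with earlier results of these data known. Counts were summed over the cells of each library and fitted with edgeR 4.0.16 (R 4.3.3) using filterByExpr, TMM factors and 6 group means with 6 residual degrees of freedom. Comparisons were made between untreated lines, between cetuximab and PBS in each line and over the lines, and between the effects in the lines, the script being tested on simulated data. P-values are adjusted over 17897 genes, and a gene was called below 0.05. DESeq2 1.42.0, other scalings and filters, thinned cells (15000 UMIs), fits without each library and replicate blocks were alternatives. Leaving out a library leaves 1 in its group, which is assumed to vary like the other groups.

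Replicate numbers come from the labels. Same-numbered libraries deviated together in all 15 pairs of groups (correlation 0.31 to 0.69). The correlation was 0.634, 0.558 and 0.689 within SCC1, SCC6 and SCC25, and 0.307 to 0.662 across lines. Pairing within a line and a shift shared by the lines were therefore not told apart. The main fit took no account of the replicate numbers. The blocked fit took the libraries as paired within each line and has 3 residual degrees of freedom. It is given where it changes the call of a named HOX gene, and as counts for the other lists. Replicates of a group differed far beyond sampling noise (chi-square per degree of freedom 132.3 to 390.7). Values in every library are given for each HOX gene with a group mean of at least 5 CPM or called in any comparison, 36 of 39. From each further list at most 6 genes were named, those with the highest mean CPM, and those called with cetuximab. Some genes that these rules take in are not reported here. Intervals are exact (Clopper-Pearson or its ratio form) at 95%, and floors are 3 UMIs over the 2 libraries of a group. Sequences and positions are from RefSeq tables of GRCh38.p14.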

Additional observations from a re-analysis of the deposited data

How the results depend on the processing

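Of 69 calls of single HOX genes between untreated lines, 46 kept their direction and call under every alternative tried, and 23 fell short of the threshold under at least 1, with no change of direction. The counts of HOX genes called moved by less than 1.5 times except as follows. Leaving out 1 library gave 17 to 24 calls for SCC6 against SCC1, 22 to 28 for SCC25 against SCC6, and 10 to 20 for SCC25 against SCC1, where the 10 came without SCC1 PBS replicate 2. For cetuximab in SCC6 the count of 0 became 1 with library totals in place of TMM factors, 4 with DESeq2, 6 with the replicate block, 5 with a block shared by the lines, 8 with the block and library totals, and 0 to 1 on leaving out a library (1 without SCC6 cetuximab replicate 2). Across lines the count of 1 became 0 with library totals, 2 with the block, 2 with the block and library totals, and 0 to 1 on leaving out a library. In SCC1 and SCC25 and for the difference between lines it was 0 throughout. Library totals, with and without the block, were added after seeing the data. The causes of these shifts were not tested.

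Without thinning, the shares of untreated cells with a UMI were 96.75%, 96.22% and 95.3% for HOXA in SCC1, SCC6 and SCC25, 89.84%, 63.3% and 81.2% for HOXB, 82.95%, 55.28% and 94.32% for HOXC and 85.35%, 2.269% and 71.18% for HOXD. Depth limits the lowest genes: 3 UMIs over a group correspond to 0.0148 to 0.0221 CPM, and a fold change of a gene under it is a bound.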
